A study of Mus musculus with 12 samples.

Results

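The cytosolic ribosomal protein genes are the genes whose products, together with ribosomal RNA, build the large (60S) and small (40S) subunits of the cytoplasmic ribosome. They were taken by symbol, as genes named Rpl or Rps followed by a number, with Rplp0, Rplp1, Rplp2 and Rpsa, leaving out symbols marked as pseudogenes. The rule found 84 genes among 27998 in the tables, 52 of the large and 32 of the small subunit, and all 84 had at least 1 UMI. A UMI is a molecular tag that counts 1 captured transcript. One of the 84, Rpl6l, is annotated as a processed pseudogene.

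The cells were CD45-negative stromal cells sorted from digested hind limb joints of wild-type C57BL/6 male mice, 8 to 10 weeks old. Arthritis was induced by intravenous serum from K/BxN mice, the STIA model. The labels gave 4 stages with 3 libraries each, with joints taken at rest (day 0), at the peak (7 to 9 days after serum), while resolving (15 days) and once resolved (22 days), and each library pooled the joints of 3 animals. Of 21042 deposited cells, 20060 passed the study's limits, between 1227 and 2747 a library, with 7468914 to 16566202 UMIs a library. The study itself reported a slightly larger number of cells past its limits.

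Ribosomal proteins are made in near equal amounts, and their transcripts are among the most abundant of any cell. Many of these mRNAs begin with a C followed by a run of pyrimidines, the terminal oligopyrimidine or TOP motif, through which mTOR signalling and the binding protein Larp1 control their translation. A few members have paralogs that are used mainly in certain tissues, such as Rpl3l in striated muscle and Rpl39l in testis. In the synovium, lining fibroblasts make lubricin (Prg4), and sublining fibroblasts hold the matrix and answer inflammatory signals.

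The libraries did not group by stage. Each barcode ended in a number from 1 to 12, and the library nearest to each one in expression carried a neighbouring number: it came from the same run of 3 consecutive suffixes (1-3, 4-6, 7-9 or 10-12) for 12 of 12 libraries and from the same stage for 0 of 12. Each run held libraries with 3 different stage labels. Values were therefore given both by the label and by the suffix run, and the runs were treated as groups of files, not as conditions. No barcode was shared between libraries. The median over deposited cells was 5358 UMIs in 12 of 12 libraries. Whether counts were thinned to a shared depth before deposit is not given in the sources used here, so UMI totals may not be the sequenced depth.

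Printed here are the starts of 7 members named in the results, to show the pyrimidine run that most of the group shares and how the paralogs compare. Each line gives 15 bases before and 15 after the RefSeq transcript start, on the gene's strand, build GRCm38.p6, with the pyrimidine run in capitals.
Rps6: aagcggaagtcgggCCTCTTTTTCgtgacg
Rpl13a: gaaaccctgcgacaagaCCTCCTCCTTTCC
Rps27: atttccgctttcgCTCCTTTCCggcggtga
Rpl22l1: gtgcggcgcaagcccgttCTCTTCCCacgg
Rpl39: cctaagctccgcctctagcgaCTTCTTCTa
Rpl39l: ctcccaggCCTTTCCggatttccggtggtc
Rpl3l: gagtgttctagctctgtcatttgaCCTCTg

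These windows lie at chr4:86857353-86857382 (minus strand) for Rps6, chr7:45128731-45128760 (minus) for Rpl13a, chr3:90213634-90213663 (minus) for Rps27, chr3:28805493-28805522 (plus) for Rpl22l1, chrX:37085208-37085237 (minus) for Rpl39, chr16:10170213-10170242 (plus) for Rpl39l and chr17:24727811-24727840 (plus) for Rpl3l. The run searched was a C followed by at least 4 bases that are C or T, beginning within 10 bases of the annotated start, on the gene's own strand only. It was present in 39 of the 63 members with a start in the table (61.9%), with a median length of 8 bases. Among all 27025 symbols with a start, 34.4% held it, of the mitochondrial ribosomal protein genes 45.6% and of the translation factors 29.0%. Members without it in this window included Rpsa, Rplp0, Rps4x, Rpl4, Rpl41 and Rps28. A match of letters is a description, since the annotated start can differ from the one these cells use.

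The share of UMIs that fell on the members differed between cell types. Ribosomal protein genes took 16.0% of all UMIs. A share is relative, so it also falls when other transcripts of a cell rise. By cell type, named from marker genes on clusters built without these genes, the share was highest in muscle cells (the cluster led by Myod1 and Asb5, with 6 of 6 muscle markers, the stem cell genes Pax7 and Myf5 among them) at 24.3% ± 1.76 (SD, n = 6 libraries with at least 20 such cells), with a lowest, median and highest library of 21.7%, 24.8% and 26.2%. Muscle cells below are the Myod1/Asb5 cluster alone. The unnamed Acta1/Tnnc2 cluster, led by contractile genes, was not among them and had 10.4% pooled over libraries. Proliferating cells had 20.0% ± 2.05 (n = 5) and chondrocytes 17.1% ± 1.52 (n = 4). Fibroblasts, the 10148 cells of 8 clusters, had 16.7% ± 2.72 (n = 12; 12.7%, 16.4% and 20.6%), and vascular endothelial cells 15.6% ± 2.89 (n = 12). Tenocytes had 13.7% ± 1.099, perivascular cells 12.3% ± 2.46 and osteoblasts 11.8% ± 1.59 (each n = 12). Unnamed clusters held a further 3562 cells with at least 5 of 7 fibroblast markers, which were not counted as fibroblasts. Their shares were 15.8% in C1qtnf3/Spon2 (n = 7), 12.5% in Cytl1/Clu and 11.4% in Nppc/Col8a1 (each n = 12). The proliferating cells carried 7 of 7 fibroblast markers as well.

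Set against the fibroblasts of the same libraries, the share in muscle cells was 9.73 percentage points ± 1.02 higher (6 of 6 libraries). It was higher by 1.99 ± 1.21 in chondrocytes (4 of 4) and by 1.04 ± 0.55 in proliferating cells (5 of 5). Osteoblasts differed by -4.92 ± 2.22, perivascular cells by -4.43 ± 1.09 and tenocytes by -3.06 ± 2.44 points, each lower in 12 of 12 libraries. Vascular endothelial cells differed by -1.13 ± 1.11 points and were lower in 10 of 12. Vascular endothelial cells and fibroblasts therefore overlapped across libraries, whereas every muscle value lay above every fibroblast value.

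The number of UMIs per cell did not follow the share. Muscle cells had a median of 2639 UMIs a cell, proliferating cells 12442, chondrocytes 14326, fibroblasts 5440 and osteoblasts 5130. The part of these depths in the differences was not tested. The 2 vascular clusters also differed from each other, with 17.6% ± 2.40 in the Plvap/Ctla2a cluster and 12.1% ± 0.98 in the Timp4/Cd36 cluster. Shares in immune, lymphatic endothelial and Schwann cells came from 1, 2 and 1 library and were 19.1%, 16.8% and 11.8%.

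**Figure D1:**
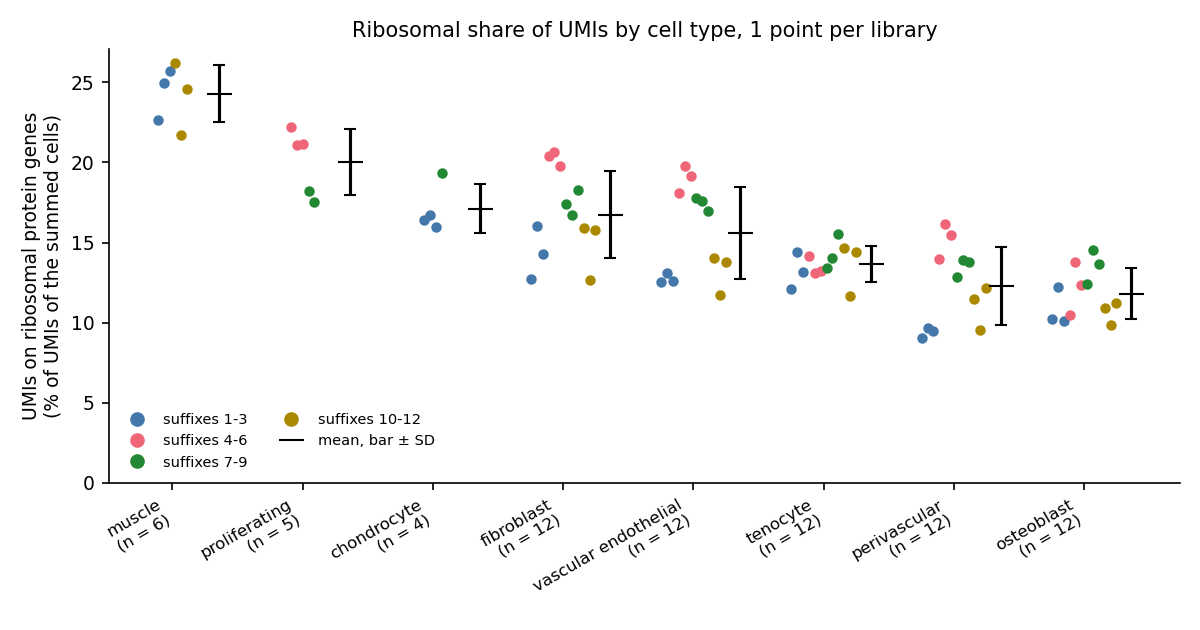
Share of UMIs on the 84 ribosomal protein genes (y axis, % of the summed cells' UMIs) for cell types seen in at least 4 libraries; each point is 1 library, coloured by its barcode suffix run, with the mean and SD beside. Muscle cells lie between 21.7% and 26.2%, above every fibroblast library, and osteoblasts between 9.84% and 14.5%.

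Among fibroblasts, the most abundant members were Rpl41, the shortest ribosomal protein, at 5553 ± 1342 CPM (SD, n = 12), Rpl13 at 4342 ± 334 and Rplp0, the base of the P stalk that recruits translation factors, at 3934 ± 792. CPM is a gene's UMIs scaled to the same library total, the usual unit of count tables, and this 3' assay tags each molecule once, so no division by gene length was made. The rarest detected members were Rpl39l at 5.48 ± 2.01, Rpl3l at 0.27 ± 0.41 and Rpl10l, an autosomal copy of Rpl10 known from testis, with 1 UMI in all fibroblasts. Rpl10l and Rpl3l were too low to be tested in any comparison, so 82 members were tested between cell types.

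Muscle cells were the type in which most members rose. In edgeR's quasi-likelihood test on UMIs summed per library and type, with library as a block, 56 of 82 members were higher than in fibroblasts and 1 was lower. Of all 7955 genes tested, 14.7% were higher and 26.5% lower. A call here needed a Benjamini-Hochberg adjusted p under 0.05 and a log2 fold change over 0.5. The members' median log2 fold change was 0.61, against -0.33 for all genes, and both subunits were alike (0.60 large, 0.61 small). Scaling by total counts put these medians at 0.74 and -0.21. Genes of the dissociation list took 4.29% ± 0.99 of UMIs in muscle and 2.30% ± 0.49 in fibroblasts, with 8 of 20 higher and 4 lower, and their part in the result was not tested. The count of members fell to 20 higher with no filter on low counts and to 36 without the library block.

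Rpl4, a core protein that lines the peptide exit tunnel, measured 2874 to 3311 CPM in muscle (median 3081) and 1238 to 1969 in fibroblasts (median 1447), so the ranges did not meet. Its log2 fold change was 1.12 ± 0.09 (SE, adjusted p = 1.95e-15 by edgeR, higher in 6 of 6 libraries). Rpl9 measured 3258 to 3969 CPM (median 3528) against 1330 to 2319 (median 1691), a log2 fold change of 1.09 ± 0.08 (adjusted p = 1.54e-17, edgeR). Rpl7l1, an Rpl7 paralog at low level, had 56.9 to 151 CPM against 35.6 to 55.8 in fibroblasts, a log2 fold change of 1.14 ± 0.19 (adjusted p = 9.82e-07, edgeR). Rps27, which sits on the small subunit and has a near-identical retrocopy, measured 4783 to 6158 CPM in muscle and 2109 to 3283 in fibroblasts, and its log2 fold change was 0.80 ± 0.08. These 4 members lay above the fibroblast range in every muscle library.

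The other translation genes of muscle cells were mixed. Of the translation factors, 16 of 40 tested were higher and 1 lower, led by the RNA helicase Eif4a1 (log2 fold change 1.24 ± 0.10) and the termination factor Etf1 (1.17 ± 0.14). Of the genes for ribosome assembly, 21 of 29 were higher and 0 lower, with Grwd1, a nucleolar protein, at 2.22 ± 0.28 and Polr1a, the large subunit of RNA polymerase I, at 1.92 ± 0.41. Mitochondrial ribosomal protein genes, which serve the separate ribosome of mitochondria, showed 3 higher and 24 lower of 72, with Mrpl34 at -2.81 ± 0.56 and Mrps16 at -1.84 ± 0.28. All values are log2 fold changes with SE from the same fit, and each gene named here moved the stated way in 6 of 6 libraries except Polr1a (5 of 6).

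Osteoblasts and perivascular cells were the types in which most members fell. Osteoblasts had 59 of 82 members lower and 1 higher than fibroblasts (background 17.5% lower and 14.3% higher), with a median log2 fold change of -0.56 against -0.01 for all genes. Perivascular cells had 66 lower and 0 higher (background 23.8% lower), with medians of -0.63 and -0.06. In either direction, 43.2% of genes were called in perivascular cells. With total counts in place of TMM factors, 32 members were lower in osteoblasts (27 at clustering resolution 0.5) and 24 in perivascular cells, and the perivascular medians were -0.43 for members and 0.13 for all genes. Perivascular cells also had the highest mitochondrial share of UMIs, 4.21% against 2.58% in fibroblasts, and the part of this in their values was not tested.

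In osteoblasts, Rps20 measured 672 to 1370 CPM (median 939) against 1122 to 2269 (median 1665) in fibroblasts. Its log2 fold change was -0.90 ± 0.08 (SE, adjusted p = 9.2e-16 by edgeR, lower in 12 of 12 libraries). Rps4x, the X-linked form of a small-subunit protein, measured 1396 to 2581 CPM (median 1849) and had a log2 fold change of -0.89 ± 0.08 (adjusted p = 3.37e-14, edgeR). Rpl36a, whose reads can be shared with the near-identical Rpl36al, had -0.82 ± 0.09. Of the translation factors, 1 of 40 was higher and 11 lower in osteoblasts, among them Eif3f (-0.77 ± 0.09) and Tpt1 (-0.70 ± 0.07), the latter a TOP mRNA.

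In perivascular cells, Rps12 measured 522 to 1358 CPM (median 833) against 1027 to 2248 (median 1561) in fibroblasts, for a log2 fold change of -1.06 ± 0.09 (its SE; adjusted p = 1.05e-16 by edgeR, lower in 12 of 12). Rps28 measured 799 to 1404 CPM against 1398 to 2122, so the ranges barely overlapped, with a log2 fold change of -0.98 ± 0.08 (adjusted p = 1.29e-16, edgeR). Rplp0 had -0.96 ± 0.10. Ribosomal proteins outside the name rule followed: Gnb2l1, the older symbol of Rack1, had -0.71 ± 0.09 and Fau -0.54 ± 0.06, and 4 of 5 such genes were lower in both osteoblasts and perivascular cells.

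Vascular endothelial cells had 21 of 82 members lower and 0 higher, where 27.7% of all genes were lower, close to the members' 25.6%, and 27.0% higher. The members' median was -0.38. Scaling by total counts left 3 lower and resolution 0.5 left 10, while dropping the filter on low counts gave 39. The medians with total counts were -0.10 for the members and 0.28 for all genes. Rpl22l1 measured 473 to 1069 CPM in them (median 674) against 751 to 1707 in fibroblasts (median 1138), for a log2 fold change of -0.91 ± 0.09 (its SE; adjusted p = 2.59e-13 by edgeR). Rpl12, of the stalk base, had -0.88 ± 0.10, and Rps27l, a paralog of Rps27 known as a p53 target, had -0.77 ± 0.08, each lower in 12 of 12 libraries. Rps29 (-0.09 ± 0.07) and Rpl3 (-0.16 ± 0.07) did not pass.

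Tenocytes had 1 member higher and 1 lower (background 10.4% higher and 13.4% lower), although their summed share was below that of fibroblasts in every library. The members' median log2 fold change was -0.14. The lower member was Rpl22l1, with 366 to 770 CPM (median 588) and a log2 fold change of -0.86 ± 0.10 (its SE; adjusted p = 4.26e-11 by edgeR, lower in 12 of 12). Its partner Rpl22 did not pass, at -0.22 ± 0.08. The higher member was Rpl39l, a call that was lost without upper limits on genes and UMIs per cell.

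**Figure D2:**
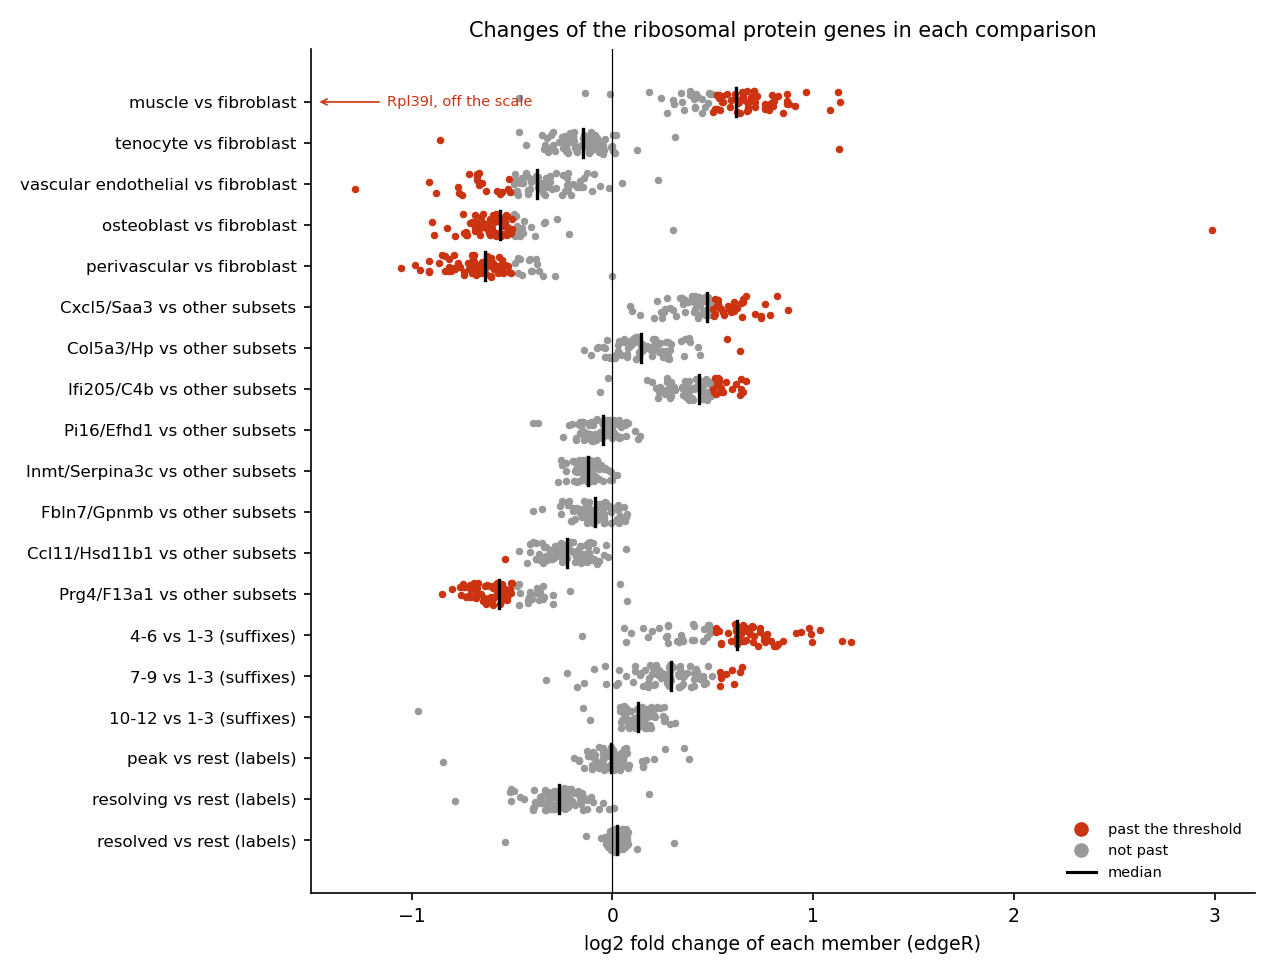
log2 fold change of each tested member (x axis) in each comparison (y axis), in red where past the threshold, with the median as a bar; Rpl39l in muscle, with 0 UMIs, is off the scale. The members move as a block in muscle (median 0.61), perivascular cells (-0.63) and the Prg4/F13a1 cluster (-0.56), and Rpl39l in osteoblasts (2.99) lies far from the rest.

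Rpl39l was the member that varied most over cell types, and it moved apart from the group. Rpl39 lines the peptide exit tunnel, and Rpl39l is its autosomal copy. In osteoblasts Rpl39l measured 30.002 to 75.4 CPM (median 39.6) and in chondrocytes 20.7, 34.9, 38.9 and 48.2 CPM in the 4 libraries with enough cells. Fibroblasts had 2.08 to 7.80 CPM (median 5.35), so no fibroblast library reached the lowest osteoblast or chondrocyte library. The log2 fold change in osteoblasts was 2.99 ± 0.17 (SE, adjusted p = 4.27e-22 by edgeR, higher in 12 of 12), while Rpl39 itself was lower there (-0.57 ± 0.09, adjusted p = 3.22e-07).

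Rpl39l nonetheless made up only 2.55% ± 0.80 of the Rpl39 and Rpl39l UMIs of osteoblasts (n = 12), 1.27% ± 0.40 in chondrocytes and 0.22% ± 0.08 in fibroblasts. The unnamed Nppc/Col8a1 cluster, which passed 2 of 6 tenocyte markers, had 39.4 ± 11.7 CPM (n = 12) and lay above the fibroblasts of the same library in 12 of 12. Tenocytes had 0 to 22.6 CPM (median 10.0), a log2 fold change of 1.13 ± 0.29 (adjusted p = 0.00186, edgeR), higher in 9 of 12. Vascular endothelial cells had 0 to 4.29 CPM and -1.28 ± 0.32 (adjusted p = 0.000335, edgeR), lower in 11 of 12 on TMM-scaled values but not by CPM in peak 3 (3.27 against 2.71) and resolving 3 (4.29 against 2.08). Counts were low, with 39 Rpl39l UMIs in all tenocytes and 19 in all vascular endothelial cells.

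In muscle cells Rpl39l had 0 of 670944 UMIs, and a count of 0 allows up to 4.47 CPM (3 counts over the group, for counting error only). The fibroblasts of those 6 libraries had 4.46 CPM pooled. A difference was therefore not detectable at this depth, although edgeR called Rpl39l lower (adjusted p = 0.0205). DESeq2 and resolution 0.5 did not make the call. Rpl39l was not tested between fibroblast clusters.

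Rpl3l was found almost wholly in 1 cluster. Rpl3 sits next to the peptidyl transferase centre, and Rpl3l is its striated muscle paralog. The Acta1/Tnnc2 cluster, led by Acta1, Tnnc2, Myl1, Mylpf and Ckm, genes of the contractile apparatus and its energy supply, held 132 cells from 12 libraries and was left unnamed because it carried 2 of 6 muscle markers. In it Rpl3l had 562 UMIs, 808 CPM (743 to 878, exact binomial 95% interval, counting error only), and Rpl3 had 126 UMIs, 181 CPM (151 to 216). Rpl3l thus made up 81.7% of the pair (78.6 to 84.5).

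In each of the other 23 clusters, the Myod1/Asb5 muscle cells included, Rpl3l made up at most 0.32% of the pair and Rpl3 measured at least 1356 CPM. The Rpl3l share varied between libraries of the Acta1/Tnnc2 cluster, from 27.6% (resolving 2, 3 cells) to 97.3% (resolving 1, 17 cells). In the 5 libraries with at least 13 cells it was 81.4% to 97.3%. The summed level of the members was also low in this cluster (10.4% of its 695273 UMIs). Pooled over libraries, the 82 members with at least 20 UMIs had a median of 0.60 times their fibroblast level, and Rpl3 was at 0.09 times, the lowest of them. These pooled values have no test, since most libraries held fewer than 20 such cells.

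**Figure D3:**
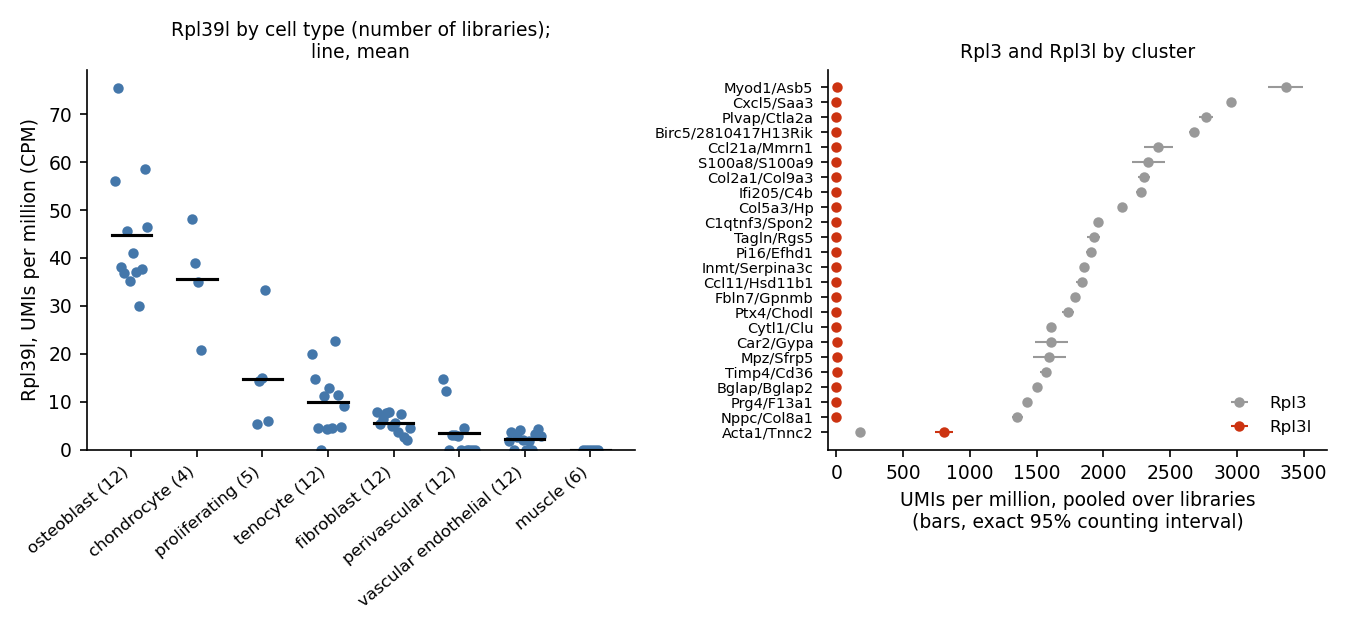
Left, Rpl39l in CPM (y axis) by cell type, 1 point per library, line at the mean; right, Rpl3 and Rpl3l in CPM (x axis) pooled over libraries for each cluster (y axis), with exact 95% counting intervals. Rpl39l lies between 30.002 and 75.4 in osteoblasts, and Rpl3l exceeds Rpl3 in the Acta1/Tnnc2 cluster alone (808 against 181).

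Rpl22l1 and Rps27l were abundant. Rpl22l1 made up 60.2% ± 4.37 of the Rpl22 and Rpl22l1 UMIs in fibroblasts (n = 12), 68.0% ± 3.15 in chondrocytes (n = 4) and 65.9% ± 2.80 in osteoblasts (n = 12). It made up 49.1% ± 5.16 in tenocytes and 51.2% ± 3.35 in vascular endothelial cells. Rps27l made up 27.0% ± 0.78 of its pair in proliferating cells (n = 5), 15.8% ± 3.15 in fibroblasts and 6.13% ± 1.74 in muscle cells (n = 6). The shares of each pair were described and not tested.

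Among the fibroblast clusters the share ran from 11.9% to 21.4%. The Cxcl5/Saa3 cluster, led by a neutrophil chemokine and an acute-phase protein, had a share of 21.4% ± 1.13 (SD, n = 6). The Col5a3/Hp cluster had 19.4% ± 1.38 (n = 6), and the Ifi205/C4b cluster, inflammatory-like, with Ccl2, Ccl7 and Ptx3 among its leading genes, had 18.0% ± 1.84 (n = 12). The Pi16/Efhd1 cluster, sublining-like, had 16.2% ± 1.20 (n = 10), Inmt/Serpina3c 15.2% ± 1.52, Fbln7/Gpnmb 14.5% ± 1.11 and Ccl11/Hsd11b1 14.2% ± 1.27 (each n = 12). The lining-like Prg4/F13a1 cluster had 11.9% ± 1.76 (n = 12; 8.79%, 12.2% and 14.7%).

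Against the mean of the other clusters of the same library, the Prg4/F13a1 cluster differed by -4.37 points ± 1.06 (lower in 12 of 12). The Ifi205/C4b cluster was higher by 2.80 ± 1.11 (12 of 12), the Cxcl5/Saa3 cluster by 5.26 ± 1.54 (6 of 6) and the Col5a3/Hp cluster by 2.94 ± 1.67 (6 of 6). The Cxcl5/Saa3 and Prg4/F13a1 clusters lay at the 2 ends of the order, and both had more UMIs a cell than the fibroblast median (10056 and 8390).

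**Figure D4:**
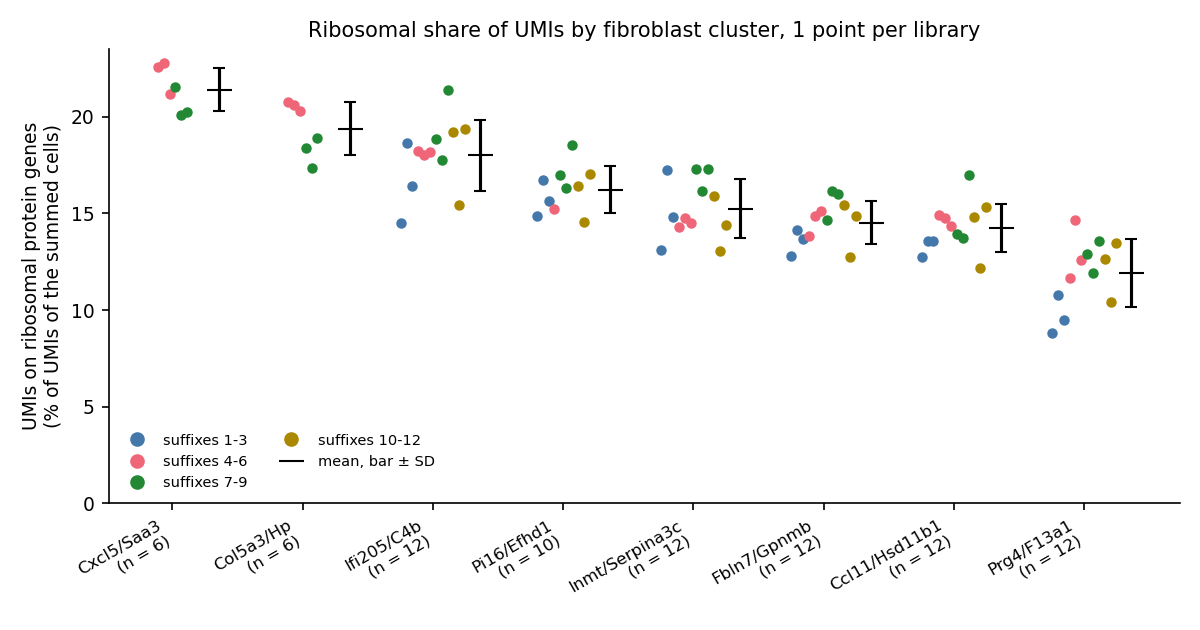
Share of UMIs on the ribosomal protein genes (y axis, %) in the 8 fibroblast clusters, 1 point per library coloured by suffix run, with mean and SD. The Cxcl5/Saa3 points (20.1% to 22.8%) lie above all Prg4/F13a1 points (8.79% to 14.7%).

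Most members fell in the lining-like Prg4/F13a1 cluster. In the fit over all fibroblast clusters, with library as a block, 58 of 81 members were lower there and 0 higher (background 18.2% lower and 32.6% in either direction, of 7590 genes), with a median log2 fold change of -0.56 against -0.01 for all genes. Rps19, needed for small-subunit maturation and mutated in Diamond-Blackfan anaemia, measured 1397 to 2771 CPM (median 2183) and had a log2 fold change of -0.85 ± 0.05 (its SE; adjusted p = 2.67e-26 by edgeR, lower in 12 of 12). Rpl36a had -0.76 ± 0.05, also lower in 12 of 12. Its near-identical copy Rpl36al went the other way (0.30 ± 0.05, higher in 12 of 12, not past the threshold). Mitochondrial ribosomal protein genes in this cluster were higher in 9 and lower in 1 of 73 (14.4% of all genes were higher), with Mrpl17 at 0.79 ± 0.07. The assembly list had 0 higher and 5 lower of 29, near the share of all genes, with Myc at -0.90 ± 0.13 and Nop58 at -0.68 ± 0.12. The list of stress and immediate-early genes known to respond to tissue dissociation had 0 higher and 13 lower here.

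The Cxcl5/Saa3 cluster had 31 of 81 members higher and 0 lower (background 15.0% higher), with a median of 0.47. Rpsa, the small-subunit protein also known as the laminin receptor, measured 2215 to 2954 CPM (median 2577), for a log2 fold change of 0.88 ± 0.06 (its SE; adjusted p = 8.3e-23 by edgeR, higher in 6 of 6). Rpl10a had 0.82 ± 0.06 and Rplp0 0.79 ± 0.06. Of the translation factors 4 of 40 were higher and 1 lower, a smaller share of higher genes than among all genes, and the 4 held the elongation factor subunits Eef1b2 (0.98 ± 0.07) and Eef1g (0.94 ± 0.06). The assembly list had 1 higher, the nucleolar chaperone Npm1 (0.89 ± 0.07), and 4 lower of 29. With total counts 20 members were higher, and with no filter on low counts 53.

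The inflammatory-like Ifi205/C4b cluster had 22 of 81 members higher and 0 lower (background 15.9% higher, 28.2% in either direction), with a median of 0.43. Rps4x measured 3238 to 5275 CPM (median 4140), for a log2 fold change of 0.67 ± 0.04 (its SE; adjusted p = 8.87e-24 by edgeR, higher in 12 of 12), and Rps28 had 0.65 ± 0.05 and Rpl13 0.64 ± 0.04. With total counts 0 members passed, and the medians were 0.18 for members and -0.27 for all genes. With RLE size factors 20 passed, so the calls were lost with total counts alone. Of the assembly list 14 of 29 were higher and 1 lower, led by Myc (1.88 ± 0.11), the transcription factor that drives ribosome production, and Nop58 (1.77 ± 0.10). Of the translation factors 7 of 40 were higher and 0 lower, about the share of all genes, with the cap-binding protein Eif4e at 1.52 ± 0.08. Mitochondrial ribosomal protein genes had 1 higher and 19 lower of 73. The dissociation list had 12 higher and 0 lower of 20 in this cluster. The list also went with the members in Prg4/F13a1, with 13 lower where 58 members were lower. It did not in 4 clusters. It had 15 higher in Fbln7/Gpnmb and 14 higher in Ccl11/Hsd11b1, where no member was higher. It had 8 lower in Cxcl5/Saa3, where 31 of 81 members were higher. In Col5a3/Hp it had 15 lower, and 2 of 81 members were higher, a smaller share than of all genes. The part of these genes in the members' values was not tested.

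In the remaining clusters few members passed. The Col5a3/Hp cluster had 2 members higher (background 10.8%), Rps27l (0.63 ± 0.07) and Rpl41 (0.57 ± 0.06), and the Ccl11/Hsd11b1 cluster had 1 lower (background 7.52%), Rpl41 (-0.54 ± 0.05), which DESeq2, RLE size factors and total counts did not call. In the Fbln7/Gpnmb, Inmt/Serpina3c and Pi16/Efhd1 clusters 0 members passed in edgeR (background 17.5%, 14.6% and 18.5% in either direction, with 6.48% lower, 8.55% higher and 6.02% lower, and 9.24% each way), and 41, 60 and 30 members had an unadjusted p under 0.05 (42.4%, 40.4% and 37.6% of all genes). Without the limit on the fold, 31, 48 and 19 members were lower and 0, 0 and 2 higher. DESeq2 called 0. Their medians were -0.09, -0.12 and -0.05.

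Members used as reference genes in quantitative PCR moved with the rest. Rplp0, Rpl13a, Rpl32 and Rps18 were higher in muscle by 0.53 ± 0.12, 0.67 ± 0.09, 0.55 ± 0.11 and 0.64 ± 0.10 on the log2 scale. In the Prg4/F13a1 cluster they fell to -0.74 ± 0.05, -0.56 ± 0.05, -0.71 ± 0.05 and -0.72 ± 0.05, all past the threshold in edgeR. Rps29 did not pass in muscle (0.18 ± 0.09) but was lower in osteoblasts (-0.68 ± 0.07) and in the Prg4/F13a1 cluster (-0.60 ± 0.04). Rps6, the substrate of S6 kinase, had 0.80 ± 0.09 in muscle and -0.67 ± 0.05 in the Prg4/F13a1 cluster.

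By stage label, no member passed the test between the fibroblasts of a later stage and rest. Their share was 17.2% ± 4.05 at rest, 17.2% ± 2.22 at peak, 14.8% ± 2.41 at resolving and 17.6% ± 2.42 at resolved (SD, n = 3 each), and the libraries of the 4 labels overlapped. In edgeR 0 of 82 members and 0.0% of 11632 genes were called in each comparison with rest. DESeq2 also called 0 members. At an unadjusted p under 0.05 there were 0, 1 and 0 members and 69, 116 and 54 genes at peak, resolving and resolved. The members' medians were -0.01, -0.26 and 0.02. Rplp0, for example, had 0.06 ± 0.27 at peak, -0.25 ± 0.27 at resolving and 0.06 ± 0.27 at resolved (SE), and Rpsa -0.10 ± 0.39, -0.49 ± 0.39 and 0.03 ± 0.39. These errors leave room for changes that the test could not detect. In simulated counts for peak against rest, only 3% of the genes given a log2 change of 1 were recovered.

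By suffix run, the same fibroblasts separated. The share was 12.7%, 16.0% and 14.3% in suffixes 1 to 3, 20.4%, 20.6% and 19.8% in suffixes 4 to 6, 17.4%, 16.7% and 18.3% in suffixes 7 to 9, and 15.9%, 12.7% and 15.8% in suffixes 10 to 12. All libraries of suffixes 4-6 lay above all others, though they were labelled resolved, rest and peak. Against suffixes 1-3, 52 of 82 members were higher and 0 lower in suffixes 4-6 (background 17.8% higher, 35.4% in either direction), with a median log2 fold change of 0.62. In suffixes 7-9, 9 members were higher and 0 lower (background 10.1% higher and 8.55% lower, median 0.29). That count was 5 without rest replicate 1 and 22 without peak replicate 1. At clustering resolution 0.5 both counts were 0, but the fibroblasts were then a different set of cells. The cluster led by Cxcl5 and Saa3 (2197 cells) was named proliferating there, and the one with Fbln7 and Gpnmb stayed unnamed. In suffixes 10-12, 0 were called in edgeR (background 2.26% in either direction, median 0.13, 2 members and 18.1% of all genes at an unadjusted p under 0.05), and DESeq2 called 0. The 3 libraries of suffixes 4-6 were above those of suffixes 1-3 without overlap for 72 members (background 28.6%).

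Rpsa measured 1029, 1225 and 1129 CPM in suffixes 1-3 and 2485, 2419 and 2401 in suffixes 4-6, for a log2 fold change of 1.19 ± 0.12 (its SE; adjusted p = 1.74e-06 by edgeR). Suffixes 7-9 had 1668, 1632 and 1813 CPM and suffixes 10-12 had 1295, 1056 and 1309. Rps2, at the mRNA entry side of the small subunit, had 1.14 ± 0.11 (adjusted p = 1.82e-06, edgeR) and Rplp1, of the P stalk, 1.03 ± 0.14 (adjusted p = 4.4e-05, edgeR). Rpl22l1 had 0.996 ± 0.094 in suffixes 4-6 and 0.65 ± 0.09 in suffixes 7-9. Not every member followed. Rps27 had -0.15 ± 0.14 and Rps29 0.06 ± 0.13, and the Rps27 libraries overlapped, with 2403, 3059 and 2445 CPM in suffixes 1-3 and 2109, 2430 and 2206 in suffixes 4-6.

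The other translation lists had these counts in suffixes 4-6, where 17.8% of all genes were higher and 17.6% lower. Translation factors had 10 higher and 0 lower of 40, led by Eef1g (1.46 ± 0.09) and Eef1b2 (1.37 ± 0.11). The assembly list had 13 higher and 1 lower of 34, with Npm1 at 1.39 ± 0.09, and mitochondrial ribosomal protein genes had 13 higher and 2 lower of 76, a share of higher genes no larger than that of all genes. The members with a pyrimidine run at the start and those without had median log2 fold changes of 0.62 and 0.55.

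Cluster makeup moved with the runs. The Cxcl5/Saa3 cluster was 38.0% to 42.5% of fibroblasts in suffixes 4-6, 5.4% to 6.8% in suffixes 7-9 and at most 0.1% elsewhere. The Col5a3/Hp cluster was 10.6% to 18.8% and 28.5% to 48.8% in suffixes 4-6 and 7-9 and at most 1.6% elsewhere. Without the Cxcl5/Saa3 cells, 12 members were higher in suffixes 4-6 (background 19.8% of genes in either direction) and 5 in suffixes 7-9 (16.3%). Without both clusters 0 passed in either run in edgeR (background 7.54% and 3.77%), with 4 and 1 members and 949 and 462 of 10490 genes at an adjusted p under 0.05 of any fold. The members' median in suffixes 4-6 was 0.62 with all fibroblasts, 0.33 without Cxcl5/Saa3 and 0.20 without both. In suffixes 7-9 it was 0.29, 0.26 and 0.20, with 73 of 82 members above 0 without both. When the 5 clusters found in all 12 libraries were given equal weight, the share was 13.6% ± 1.23, 15.0% ± 0.42, 15.9% ± 1.01 and 14.6% ± 1.602 in the 4 runs in order of suffix, and 15.0% ± 2.36, 15.1% ± 0.40, 14.0% ± 1.41 and 15.1% ± 0.46 in the stages from rest to resolved.

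**Figure D5:**
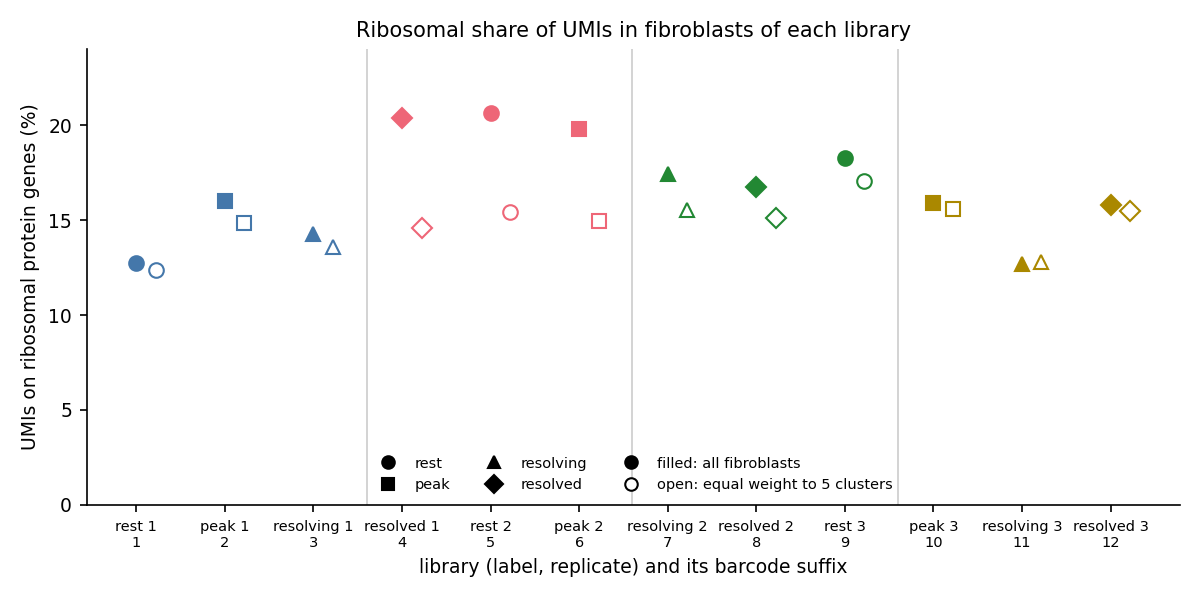
Share of UMIs on the ribosomal protein genes (y axis, %) in the fibroblasts of each library (x axis, in order of barcode suffix), filled for all fibroblasts and open for equal weight to 5 clusters; the shape gives the stage label. The filled points of suffixes 4 to 6 (19.8% to 20.6%) lie above all others, and their open points do not.

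Within single clusters and other cell types the runs differed to unequal degrees. In the Prg4/F13a1 cluster alone, 20 members were higher in suffixes 4-6 (background 8.54% in either direction) and 9 in suffixes 7-9 (5.99%; 19 members with total counts), with shares of 9.69% ± 1.01, 12.96% ± 1.55, 12.8% ± 0.85 and 12.2% ± 1.58 in the 4 runs. In the Ccl11/Hsd11b1, Fbln7/Gpnmb, Inmt/Serpina3c and Ifi205/C4b clusters at most 1 member was called in either run. Of all genes, 2.63%, 0.847%, 3.87% and 3.28% were called in suffixes 4-6 and 0.394%, 0.736%, 1.47% and 0.809% in suffixes 7-9. At an unadjusted p under 0.05 in edgeR there were 37, 20, 5 and 7 of 81 members in suffixes 4-6. All genes had 13.9%, 13.3%, 17.1% and 15.9%. In suffixes 7-9 there were 15, 42, 14 and 22 members, against 9.22%, 12.8%, 12.3% and 13.2% of all genes. The members' medians were 0.33, 0.17, -0.04 and 0.13 in suffixes 4-6 and 0.22, 0.29, 0.23 and 0.28 in suffixes 7-9. The call in Inmt/Serpina3c in suffixes 4-6 was a lower member. In perivascular cells 61 of 81 members were higher in suffixes 4-6 (background 20.8% in either direction) and 44 in suffixes 7-9 (18.2% in either direction). The share was 9.39% ± 0.33, 15.2% ± 1.12, 13.5% ± 0.59 and 11.1% ± 1.34. Osteoblasts and tenocytes had 0 members called in either run in edgeR (background 0.709% and 0.0%, and 1.54% and 0.879%). In osteoblasts 26 and 64 of 82 members had an unadjusted p under 0.05 in suffixes 4-6 and 7-9 (12.1% and 10.1% of all genes). The osteoblast medians were 0.25 and 0.45. In tenocytes 1 and 12 of 81 members did (15.4% and 12.5% of all genes), with medians of 0.09 and 0.18.

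In vascular endothelial cells 60 of 81 members were higher in suffixes 4-6 (background 20.2% in either direction) and 44 in suffixes 7-9 (9.43% in either direction). Here too the makeup moved: the Plvap/Ctla2a cluster was 30.6% to 40.2% of these cells in suffixes 1-3, 68.1% to 74.6% in 4-6, 64.5% to 79.5% in 7-9 and 14.6% to 21.6% in 10-12. Within it the share was 14.9% ± 0.07, 20.2% ± 0.86, 18.6% ± 0.66 and 16.5% ± 2.47, and within the Timp4/Cd36 cluster 11.0% ± 0.85, 12.7% ± 0.57, 12.7% ± 0.54 and 12.1% ± 1.06 (SD, n = 3 each).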

How the data were processed

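Single-cell 3' libraries (10x Genomics, version 2 chemistry) were aligned to mm10 with Cell Ranger, and the authors deposited whole-number UMI counts per gene and cell. Each library was a pool of 3 animals, so p-values measure the spread between pools. Cells were kept within the study's quality limits (500 to 5000 genes, 500 to 20000 UMIs, with 25000 to 40000 in peak and resolving libraries). Cells were scaled to 10000 UMIs and clustered in scanpy 1.11.5 (2000 variable genes, 30 components, 20 neighbours, Leiden resolution 1). Before scaling, 291 genes were left out of clustering, namely the members, mitochondrial transcripts, mitochondrial ribosomal proteins and translation genes. Scrublet marked 56 cells (0.279%), too few for a working doublet call, so none were removed and an alternative dropped the 6% with the highest scores.

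Clusters were named from marker lists, and the limits for fibroblasts were set after the clusters had been seen. They gave 24 clusters, of which 5 with 3755 cells stayed unnamed. UMIs were summed per library and type over at least 20 cells. The share of UMIs has no test. Members were tested with edgeR 4.0.16 (R 4.3.3; TMM, filterByExpr, quasi-likelihood F test, two-sided, Benjamini-Hochberg over all genes tested), and SE was the log2 fold change over the square root of F. Cell types and clusters were compared with library as a block. The number of libraries showing a direction was counted on TMM-scaled values, whereas CPM was scaled to total UMIs. The script was tested on simulated counts with 200 changed genes. A log2 change of 1 was recovered for 88.5% of them in osteoblasts, 92.5% in Prg4/F13a1 and 61% in suffixes 4-6. For peak against rest 3% were recovered at a log2 change of 1, 72% at 2 and 88.5% at 3. False calls made up 2.63% to 14.3% of the calls. Named members were, in each comparison, the 3 with the largest change each way past the threshold and in every library, plus a list of paralogs and reference genes and the members of extreme level or variation. The members, lists and tests were chosen with earlier results of these data known. Replicate numbers did not pair the libraries: deviations of same-numbered libraries correlated at between -0.56 and 0.70. Reads of Rps27 and Rps27rt, of Rpl36a and Rpl36al, and of other near-identical copies may be split between them. Intervals cover counting error only. One member that the rule names is not reported here.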

Additional observations from a re-analysis of the deposited data

Results flagged for a closer look

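Ribosomal shares and paralog levels were checked in 18 groups of 4 to 10 libraries for a library far from the others. Of these 3 stood out, all of them paralog levels, where chance gives about 1 in 20. Rps27l in chondrocytes had 1 low library at 269 CPM, and the other 3 of the 4 libraries lay close together, with a group median of 321. Rpl22l1 in muscle cells had 1 high library at 1994 CPM, against a median of 1260 over 6 libraries. Rps27l in muscle cells had 1 high library at 541 CPM, against a median of 320.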

How the results depend on the processing

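Of 299 counts and shares recomputed under the alternatives, 262 stayed within 1.5 times the value given (for shares, within the spread between libraries) and 37 moved, and no direction reversed. Of 434 values of named members, 412 kept their call and direction, 19 lost the call and 0 reversed. With total counts alone the members called were 3 lower in vascular endothelial cells, 24 in perivascular cells, 32 in osteoblasts and 36 in Prg4/F13a1, 0 lower in Ccl11/Hsd11b1, and 0, 4 and 20 higher in Ifi205/C4b, Col5a3/Hp and Cxcl5/Saa3. The share of all called genes that were higher went from 56.4% to 25.7% in Ifi205/C4b, from 45.0% to 61.3% in perivascular cells, from 49.3% to 65.5% in vascular endothelial cells and from 44.9% to 55.2% in osteoblasts. RLE factors and DESeq2 gave 0 in Ccl11/Hsd11b1. With no filter on low counts they were 20 higher in muscle, 39 lower in vascular endothelial cells, 3 lower in Ccl11/Hsd11b1, 5 higher in Col5a3/Hp and 53 higher in Cxcl5/Saa3. With no limit on the fold they were 72 lower in vascular endothelial cells, 2 higher and 28 lower in tenocytes, 72 lower in Ccl11/Hsd11b1, 43 higher in Col5a3/Hp, 79 higher in Cxcl5/Saa3, 79 higher in Ifi205/C4b, 2 higher and 19 lower in Pi16/Efhd1, 31 lower in Fbln7/Gpnmb, 48 lower in Inmt/Serpina3c and 30 higher in suffixes 7-9. Without the library block, 36 were higher in muscle and 5 in Col5a3/Hp. Without upper limits on genes and UMIs, 0 were higher in tenocytes. Resolution 0.5 gave 27 lower in osteoblasts, 10 lower in vascular endothelial cells, and 0 in suffixes 4-6 and 7-9. Its fibroblasts were a different set of cells, without the cluster led by Cxcl5 and Saa3. Chosen after the data were seen, fibroblasts without Cxcl5/Saa3 gave 12 and 5 in those runs, and without Col5a3/Hp as well 0 and 0. The cause of these moves was not tested. Leaving out 1 library at a time gave 43 to 61 in suffixes 4-6, 5 to 22 in suffixes 7-9 and 0 for each stage. The replicate block gave 43 in suffixes 4-6, 0 in suffixes 7-9 and 0 for each stage, and the replicate numbers showed no pairing. Depth limits the rarest members, Rpl3l, Rpl10l and Rpl39l.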
